A study of Homo sapiens with 6 samples.

Results

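The CCN genes encode secreted matricellular proteins, and several of them, with ANKRD1, AMOTL2, AJUBA and ARHGEF17, are used as readouts of the Hippo pathway. The 10 genes described here are CCN1 to CCN6 and these 4 others, among 58336 genes in the tables, and all 10 were found by symbol from their Ensembl IDs. They were selected on differences between the genotypes in these same libraries, seen in an earlier treatment of the data, so the fold changes below describe the genes that were picked and test nothing. RNA was sequenced from KGN, a cell line of ovarian granulosa tumour origin, heterozygous for the C134W mutation of FOXL2, which encodes a forkhead regulator of granulosa cell identity. The WT/C134W group is 3 libraries of heterozygous KGN cells, for which the labels give no treatment, named 3.11 (replicate 1), 44b (replicate 2) and 3.11-44b (replicate 3). The WT/WT group is 3 libraries in which CRISPR/Cas9 had reverted the mutation, named 44a (replicate 1), 4.72 (replicate 2) and 4.72-44a (replicate 3). All 6 came from cells harvested 30 h after a transfection whose agent the labels do not give. The third library of each genotype carries the joined names of the other 2 and may be a mix, so folds and tests use the 4 libraries that name a single clone. With 2 clones per genotype, and editing recorded for the WT/WT clones alone, genotype, editing and clonal origin cannot be told apart, and the labels do not say how many cultures stand behind a library.

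CCN proteins share modules that bind growth factors, integrins and proteoglycans, and they tune adhesion and signalling at the cell surface. In the Hippo pathway the kinases STK3 and STK4 activate LATS1 and LATS2, which phosphorylate the coactivators YAP and TAZ and hold them out of the nucleus. Unphosphorylated YAP and TAZ bind TEAD factors on DNA, and CCN1, CCN2 and ANKRD1 are their standard targets. In the mouse ovary, loss of Hippo signalling after tissue fragmentation is known to raise CCN genes and to promote follicle growth.

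Depth was similar throughout, with 35332727 to 46613068 expected counts per library. Levels of a gene across libraries are given in normalised CPM (counts scaled to library size, with TMM factors), on which 3 counts correspond to 0.0662 to 0.0783 CPM. Levels of different genes are compared in TPM, which also divides by transcript length. Of 15 granulosa markers 8 reached 1 TPM in at least 1 clone, among them NR5A1 at 21.2 to 26.7 TPM, whereas FSHR, AMHR2, WT1 and GATA4 were listed at 0 in all 4 clones. Fibroblast and smooth muscle markers were abundant, with 7 of 9 at 1 TPM or more. Their summed level was 6248 and 6366 TPM in the WT/C134W clones 3.11 and 44b, against 13369 and 15756 TPM in the WT/WT clones 44a and 4.72. No marker of that list was at 0 in all clones. COL1A1 and ACTA2 made up most of the sum and, with COL3A1 and PDGFRB, were lower in both WT/C134W clones, whereas MYH11 was higher in both and PDGFRA, THY1, LUM and DES overlapped. The sum moved with most of the genes below, and its part in their differences was not tested. Of the endothelial, leukocyte, epithelial, theca, Sertoli and germ cell markers, CD68 stood highest, at 93.0 to 104.7 TPM. FOXL2 itself was measured at 9.31 and 10.1 CPM in 3.11 and 44b, against 7.42 and 4.83 CPM in 44a and 4.72. A gene count does not show the allele, so this does not check the genotype.

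CCN2 and CCN1 made up nearly all CCN transcript in these cells and were lower in both WT/C134W clones than in both WT/WT clones. CCN2 (formerly CTGF), a profibrotic matricellular protein and the classic YAP target, is encoded on chromosome 6 at 131948176 to 131951373, minus strand, in GRCh38. It had 431 CPM in 3.11, 1568 CPM in 44b and 1291 CPM in the joined 3.11-44b, against 3768 CPM in 44a, 3433 CPM in 4.72 and 3477 CPM in the joined 4.72-44a. All 3 WT/C134W libraries lay below all 3 WT/WT libraries, and 3.11 stood far below 44b. The clone means were 999.6 ± 804 CPM in WT/C134W and 3601 ± 237 CPM in WT/WT (SD, n = 2 each), a log2 fold change of -1.85 ± 0.63 (SE from edgeR's F value). CCN1 (formerly CYR61), a matricellular inducer of adhesion and angiogenesis, lies on chromosome 1 at 85580761 to 85583962, plus strand. It had 547 CPM in 3.11, 1099.8 CPM in 44b and 926 CPM in 3.11-44b, against 1654 CPM in 44a, 2283 CPM in 4.72 and 2016 CPM in 4.72-44a. The order of the libraries was again without overlap between the genotypes, with 3.11 lowest. Means were 824 ± 391 CPM in WT/C134W and 1969 ± 445 CPM in WT/WT (SD, n = 2 each), a log2 fold change of -1.26 ± 0.38. Without 3.11 the log2 fold changes were -1.20 for CCN2 and -0.84 for CCN1, and without 44b they were -3.07 and -1.86. An antisense gene, AL133346.1, overlaps CCN2 and took 0 to 106 counts a library. In bulk RNA, fewer expressing cells and less RNA per cell cannot be told apart.

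**Figure D1:**
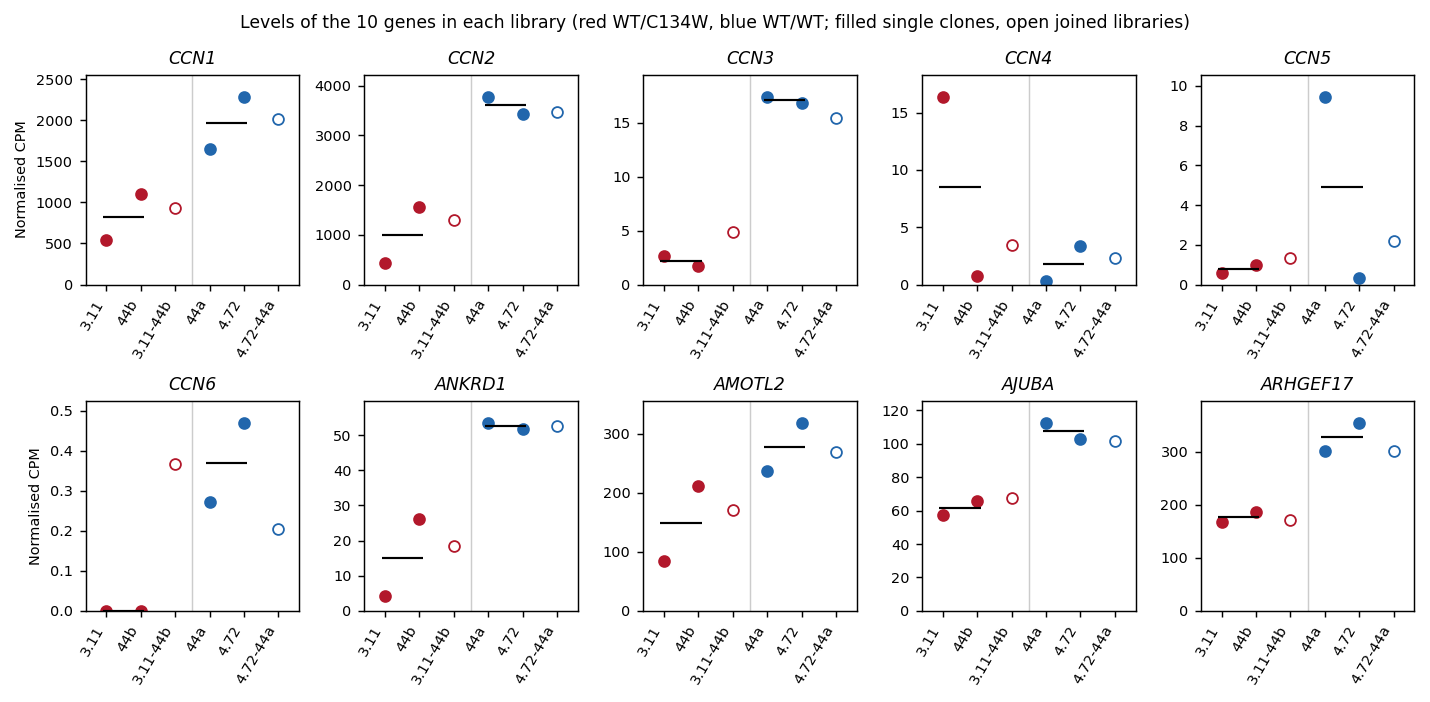
Normalised CPM (vertical axes from 0) of the 10 genes in the 6 libraries, with WT/C134W in red at the left of each panel and WT/WT in blue at the right. Filled points are single clones, open points are the libraries with joined names and bars are means of the 2 clones; 8 genes have both red filled points below both blue ones, while CCN4 and CCN5 are carried by 1 clone each, 3.11 at 16.4 CPM and 44a at 9.43 CPM.

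Per transcript length, CCN2 exceeded CCN1 in every library except 3.11. CCN2 stood at 308 TPM in 3.11 and 1074 TPM in 44b, against 2379 and 2125 TPM in 44a and 4.72, and CCN1 at 418 and 806 TPM against 1102 and 1501 TPM. The ratio of CCN2 to CCN1 was 0.737 in 3.11 and 1.33 in 44b, against 2.16 in 44a and 1.42 in 4.72. Both WT/C134W ratios were below both WT/WT ratios. CCN2 ranked 428th and 148th among genes by TPM in 3.11 and 44b, and 46th and 60th in 44a and 4.72. The 6 CCN genes together summed to 733 and 1883 TPM in the WT/C134W clones, against 3501 and 3637 TPM in the WT/WT clones, and CCN1 with CCN2 took between 98.96% and 99.81% of that sum in all 4.

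ANKRD1, a cardiac ankyrin repeat protein that binds titin in muscle and a widely used YAP readout, was lower in both WT/C134W clones, which differed from each other more than in any of CCN1, CCN2, CCN3, AMOTL2, AJUBA and ARHGEF17. The gene lies on chromosome 10 at 90912096 to 90921276, minus strand. It had 4.19 CPM in 3.11, 26.0 CPM in 44b and 18.5 CPM in 3.11-44b, against 53.3 CPM in 44a, 51.8 CPM in 4.72 and 52.5 CPM in 4.72-44a. The WT/WT libraries were nearly level, while 44b stood 6.22-fold above 3.11. The log2 fold change was -1.80 ± 0.91 (SE), and it was -1.01 without 3.11 and -3.66 without 44b. The level of ANKRD1 relative to CCN2 varied less: in TPM it was 1.16% and 1.99% of CCN2 in 3.11 and 44b, against 1.70% and 1.81% in 44a and 4.72.

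Promoter sequence is shown for CCN2 and ANKRD1, standard TEAD targets with several matches to the TEAD motif, and for CCN6 as a gene with matches and almost no transcript. The windows run from 250 bases before to 50 bases after a RefSeq start (GRCh38.p14), read 5′ to 3′ on the gene's strand, with capitals marking each match to the motif GGAATG on either strand.
CCN2 (chr6:131951323-131951622, minus strand): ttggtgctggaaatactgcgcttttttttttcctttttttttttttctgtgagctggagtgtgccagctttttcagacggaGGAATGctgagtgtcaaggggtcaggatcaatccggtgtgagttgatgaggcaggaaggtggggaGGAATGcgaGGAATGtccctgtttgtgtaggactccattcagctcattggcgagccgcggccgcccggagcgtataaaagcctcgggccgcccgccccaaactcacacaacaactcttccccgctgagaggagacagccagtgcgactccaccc
ANKRD1 (chr10:90921038-90921337, minus strand): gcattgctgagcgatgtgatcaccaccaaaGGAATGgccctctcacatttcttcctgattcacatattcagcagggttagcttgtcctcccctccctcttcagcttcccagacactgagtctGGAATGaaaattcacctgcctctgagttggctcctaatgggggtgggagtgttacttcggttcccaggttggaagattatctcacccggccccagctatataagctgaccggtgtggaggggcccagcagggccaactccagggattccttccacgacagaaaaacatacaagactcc
CCN6 (chr6:112053854-112054153, plus strand): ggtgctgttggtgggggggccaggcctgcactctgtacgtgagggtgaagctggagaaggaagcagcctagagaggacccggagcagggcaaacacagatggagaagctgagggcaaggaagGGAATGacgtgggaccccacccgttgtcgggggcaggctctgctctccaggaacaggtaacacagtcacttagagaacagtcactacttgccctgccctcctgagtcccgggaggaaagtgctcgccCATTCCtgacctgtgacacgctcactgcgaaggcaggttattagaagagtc
CCN2 held 3 matches, whose first bases lie at -169, -104 and -95 from the start. ANKRD1 held 2, at -220 and -128, and CCN6 held 2, at -128 and across the start. Among 35116 RefSeq promoters of the same length 14.0% held at least 1 match, 1.37% at least 2 and 0.128% at least 3. Windows of 5 of the 10 members, with 7 start sites, were searched. AMOTL2 and AJUBA each had 1 match at 1 of their 2 start sites, at -69 and -59, and none at the other. The promoter set had no entry for CCN1, CCN5 and ARHGEF17. CCN3 and CCN4 were left out before the search, so matches in their promoters were not tested. Both strands were also searched for the AP-1 motif TGANTCA (7.71% of all promoters), CAGACA as a SMAD motif (16.9%), the forkhead motif TGTTTAC (3.42%) and the CArG box of SRF (1.29%), and no match of these overlapped a TEAD match. ANKRD1 had an AP-1 match at -195 and a SMAD match at -142, AMOTL2 and AJUBA had SMAD matches, and none of the 7 windows searched held a forkhead or CArG match. These are matches of letters and not measured binding, and other forms of these sites, SMAD sites included, were not searched.

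**Figure D2:**
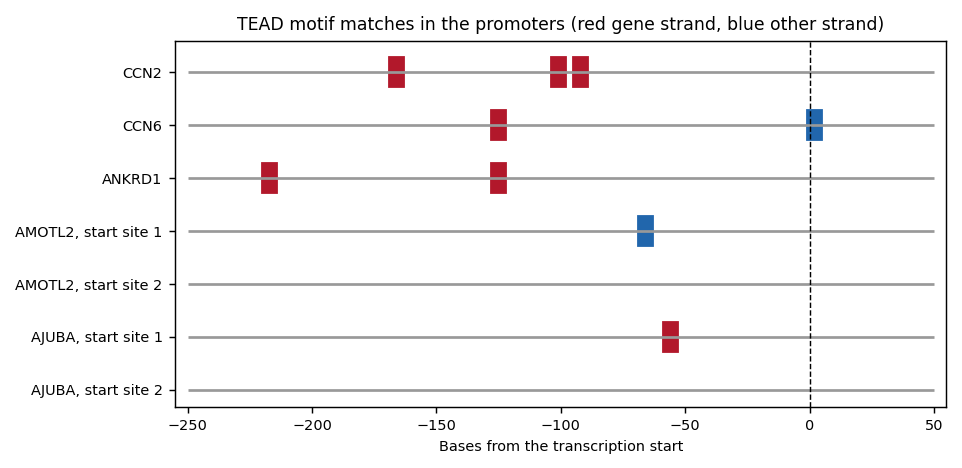
Position of each TEAD motif match (horizontal axis, bases from the transcription start, dashed line) in the 7 promoter windows of 5 members; red boxes are on the gene's strand and blue boxes on the other. CCN2 has 3 matches, CCN6 and ANKRD1 have 2 each, and AMOTL2 and AJUBA have 1 at 1 of 2 start sites.

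AMOTL2, AJUBA and ARHGEF17 act inside the cell and were moderately abundant. AMOTL2, a junctional scaffold of the angiomotin family that binds YAP and activates LATS kinases, lies on chromosome 3 at 134355874 to 134375479, minus strand. It had 85.3 CPM in 3.11, 211 CPM in 44b and 172 CPM in 3.11-44b, against 237 CPM in 44a, 318 CPM in 4.72 and 269.8 CPM in 4.72-44a. The clone 44b came close to 44a, so that the gap between genotypes was narrow and the 2 mutant clones lay far apart. Its log2 fold change was -0.90 ± 0.46 (SE), -0.39 without 3.11 and -1.71 without 44b. ARHGEF17, a guanine nucleotide exchange factor that activates RhoA, lies on chromosome 11 at 73308289 to 73369388, plus strand. Its level was 167 CPM in 3.11, 186 CPM in 44b and 171 CPM in 3.11-44b, against 302 CPM in 44a, 353 CPM in 4.72 and 301 CPM in 4.72-44a. Here the libraries of each genotype sat close together, with a log2 fold change of -0.89 ± 0.17 and values of -1.02 to -0.77 when any 1 clone was left out.

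AJUBA, a LIM-domain protein that binds LATS kinases and restrains them, was lower in both WT/C134W clones by counts, while the genotypes overlapped per transcript length. The gene lies on chromosome 14 at 22971174 to 22982642, minus strand. It had 57.4 CPM in 3.11, 65.5 CPM in 44b and 67.4 CPM in 3.11-44b, against 112 CPM in 44a, 103 CPM in 4.72 and 102 CPM in 4.72-44a, a log2 fold change of -0.81 ± 0.16 (SE). By TPM the clones overlapped, with 43.0 in 3.11 and 29.1 in 44b against 52.2 in 44a and 40.3 in 4.72. The effective length that the authors' run assigned to AJUBA, a mean over isoforms weighted by their estimated abundance, was 2071 bases in 3.11 and 3356 in 44b, against 2962 in 44a and 3444 in 4.72. The log2 difference on the TPM scale, with 1 TPM added, was -0.37 in place of -0.81. A further annotated gene, ENSG00000259132, overlaps AJUBA on the same strand and took 196 and 289 counts in 3.11 and 44b, against 344 and 318 in 44a and 4.72, so reads can be shared between them. AJUBA was the only member above 1 TPM in all 4 clones for which the 2 scales differed in whether the genotypes overlapped.

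CCN3 (formerly NOV), a CCN protein known to restrain proliferation and to bind NOTCH1, had the largest fold among the 9 members with counts in all 4 clones. The gene lies on chromosome 8 at 119416306 to 119424353, plus strand. It had 2.61 CPM in 3.11, 1.70 CPM in 44b and 4.86 CPM in 3.11-44b, against 17.4 CPM in 44a, 16.9 CPM in 4.72 and 15.4 CPM in 4.72-44a. The WT/WT libraries were close together and the WT/C134W libraries spread more widely at a low level, with clone means of 2.16 ± 0.646 CPM in WT/C134W and 17.1 ± 0.359 CPM in WT/WT (SD, n = 2 each) and a log2 fold change of -2.99 ± 0.34 (SE). Leaving out any 1 clone gave -3.33 to -2.72. In contrast to CCN1, CCN2, ANKRD1 and AMOTL2, its level in 44b was below that in 3.11, 0.650 times as high. The joined 3.11-44b held 2.25 times the mean of its 2 named clones, and 3.18-fold less than the joined 4.72-44a.

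CCN4, CCN5 and CCN6 were rare, and the direction of CCN4 and CCN5 depended on 1 clone each. CCN4 (formerly WISP1), a Wnt-induced CCN protein on chromosome 8 at 133191039 to 133231690, had 16.4 CPM in 3.11, 0.728 CPM in 44b and 3.47 CPM in 3.11-44b, against 0.340 CPM in 44a, 3.33 CPM in 4.72 and 2.31 CPM in 4.72-44a. The genotypes overlapped, and the log2 fold change of 2.22 ± 1.83 (SE) became -1.33 without 3.11. By TPM, CCN4 had 5.05 and 1.04 in 3.11 and 44b, against 0.09 and 1.01 in 44a and 4.72, so that the clones did not overlap on that scale, where its effective length was 1043 bases in 44b and 4449 in 4.72. CCN5 (formerly WISP2), which lacks the C-terminal module of the other CCN proteins, lies on chromosome 20 at 44714844 to 44728509. It had 0.605 CPM in 3.11, 0.993 CPM in 44b and 1.36 CPM in 3.11-44b, against 9.43 CPM in 44a, 0.345 CPM in 4.72 and 2.21 CPM in 4.72-44a. Its high value belonged to 44a alone, and the log2 fold change of -2.61 ± 1.47 became 1.19 without that clone. CCN6 (formerly WISP3), mutated in a human skeletal dysplasia, lies on chromosome 6 at 112054072 to 112070969. It had 0 counts in both 3.11 and 44b and 14 in 3.11-44b, against 12 in 44a, 19 in 4.72 and 8 in 4.72-44a. Against a floor of 3 counts per library, its mean in the WT/C134W clones was at least 5.34-fold lower than the 0.370 CPM of the WT/WT clones, but the joined 3.11-44b, at 0.366 CPM, stood at the WT/WT level. CCN6 passed the filter on low counts through the WT/WT clones alone, so it had to differ once tested. It shares its locus with TUBE1 on the opposite strand, which took 435 to 1059 counts a library.

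Over all genes, edgeR's quasi-likelihood test on the 4 clones called 0 of 16416 at a Benjamini-Hochberg adjusted p under 0.05 (0%), and 0 of the 10 members. Adjusted p for the members ran from 0.439 for CCN3 to 0.865 for CCN4, while an unadjusted p under 0.05 was found for 6 members and for 1243 genes, 7.57% of those tested. Both WT/C134W clones lay below both WT/WT clones for 8 members and for 19.7% of all tested genes, and above them for 0 members and 19.9% of genes. Both counts of members, 6 and 8, include CCN6, which had to differ once it passed the filter. DESeq2 on the same clones called 4 of the 9 members to which it gave an adjusted p, all lower in WT/C134W: CCN1 (0.0222), CCN3 (1.63e-10), AJUBA (0.00299) and ARHGEF17 (0.000194), where 1.54% of all genes were called lower. With all 6 libraries in edgeR the 3 called were CCN3 (0.0179), AJUBA (0.0136) and ARHGEF17 (0.00807), where 2.36% of genes were called lower, but that fit counts the joined libraries as further clones. The members were picked on this contrast, so nothing is read from these shares.

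**Figure D3:**
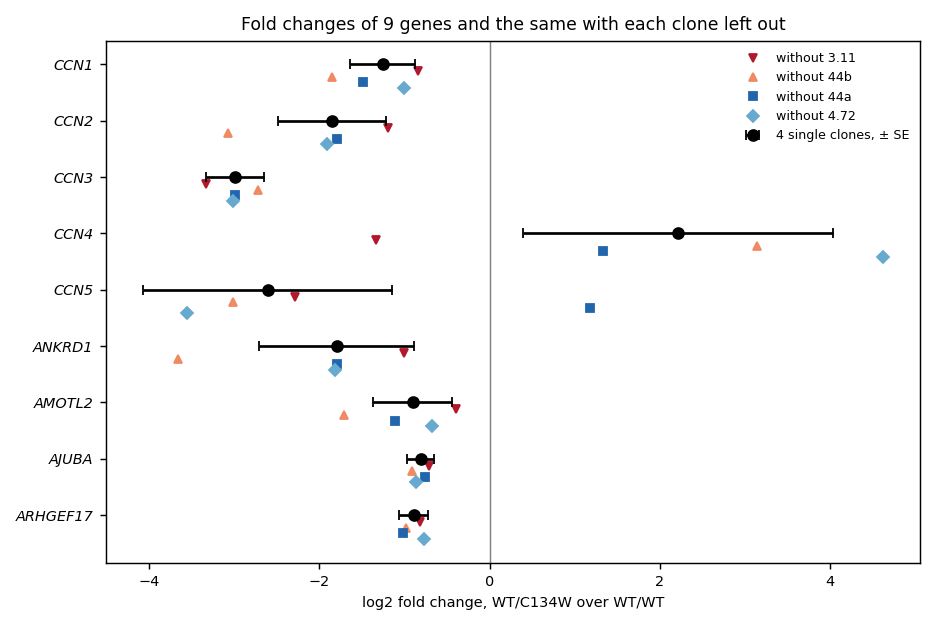
Log2 fold change of WT/C134W relative to WT/WT for 9 members in the 4 clones (black, bars are SE) and with each clone left out in turn (coloured). CCN6 is not drawn because both WT/C134W clones had 0 counts. CCN3, AJUBA and ARHGEF17 keep to a narrow range, and CCN1, CCN2, ANKRD1 and AMOTL2 shift with 3.11 and 44b. CCN4 and CCN5 each have 1 value on the other side of 0.

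Across the libraries 9 of the members were sorted into 3 descriptive patterns, formed after seeing the values, with CCN6 left out because both WT/C134W clones had 0 counts. In CCN3, AJUBA and ARHGEF17 the WT/C134W clones lay near each other, 44b being 0.650, 1.14 and 1.11 times as high as 3.11. In CCN1, CCN2, ANKRD1 and AMOTL2, 44b was 2.01, 3.64, 6.22 and 2.48 times as high as 3.11, a gap of at least 2-fold that 11.3% of all tested genes showed. The WT/WT clones differed far less in the same 4 genes, 4.72 being 1.38, 0.911, 0.971 and 1.34 times as high as 44a. With 1 library on each side these clone ratios have no replicate check. In CCN4 and CCN5 a single clone stood out, 3.11 for CCN4 and 44a for CCN5.

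**Figure D4:**
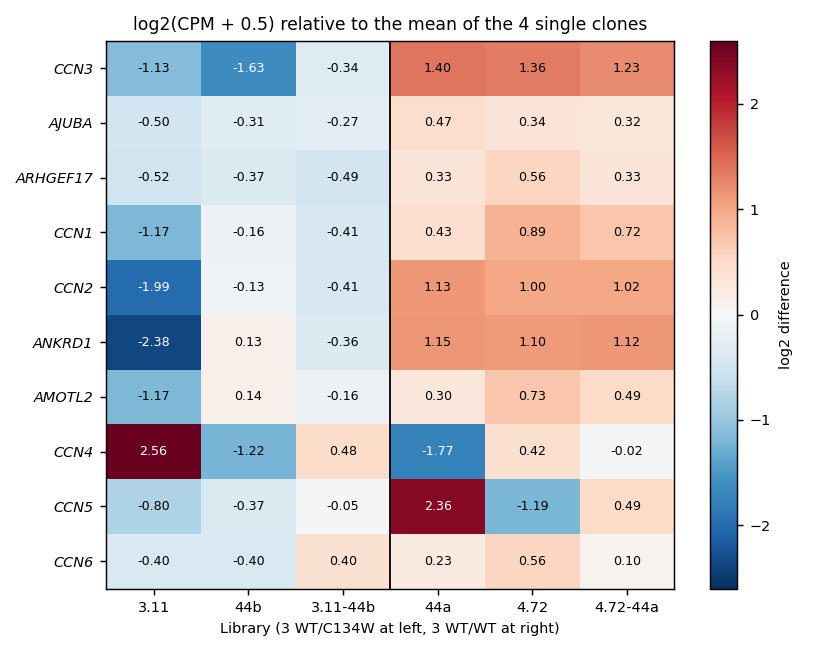
Log2(CPM + 0.5) of each member (rows) in each library (columns, WT/C134W at left and WT/WT at right) minus the mean over the 4 single clones; red is above and blue below. CCN2 and ANKRD1 are lowest in 3.11, at -1.99 and -2.38, and near the mean in 44b, at -0.13 and 0.13, whereas CCN3 is low in both.

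The joined 3.11-44b lay between its 2 named clones for CCN1, CCN2, CCN4, ANKRD1, AMOTL2 and ARHGEF17, 6 of the 10 members, against 49.0% of all tested genes. The joined 4.72-44a did so for CCN1, CCN2, CCN4, CCN5, ANKRD1 and AMOTL2, against 49.3% of genes. CCN6 had 0 counts in both 3.11 and 44b, which does not show that its RNA was absent. Its count in the joined 3.11-44b was 14. Of 36918 genes at 0 in both 3.11 and 44b, 318 (0.861%) had 10 or more counts in 3.11-44b. What the joined libraries are made of is not stated in the labels and was not tested. Between the joined libraries alone the ratio of WT/C134W to WT/WT was 0.459 for CCN1, 0.371 for CCN2, 0.314 for CCN3, 0.615 for CCN5, 0.353 for ANKRD1, 0.636 for AMOTL2, 0.663 for AJUBA and 0.566 for ARHGEF17. It was above 1 for CCN4, at 1.5, and for CCN6, at 1.78 and thus opposite in direction to the single clones; CCN6 rests on 14 and 8 counts there.

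Other genes whose level followed a member most closely over the 6 libraries were found among 895 protein-coding genes of at least 5 CPM on average. The Pearson r of log2(CPM + 0.5) is a description here, since the libraries are not independent and all such genes share the same genotype gap. For CCN1 the closest were CALD1 (r = 0.999), ARID5B (0.998), ZYX (0.998), SRF (0.998) and CSRP1 (0.996). CALD1, an actin-binding protein, had 1366 CPM in 3.11 and 2486 CPM in 44b, against 3642 CPM in 44a and 4637 CPM in 4.72. For CCN2 they were SOD3 (0.998), GLIS2 (0.998), MMP19 (0.997), TAGLN (0.997) and GADD45B (0.996). TAGLN, a smooth muscle actin-binding protein, had 881 CPM in 3.11 and 2118 CPM in 44b, against 3323 CPM in 44a and 3461 CPM in 4.72. For CCN3 they were HES6 (0.988), IRX3 (0.988), ARHGEF19 (0.982), KLF5 (0.979) and LAMA2 (0.977). Within the members r was 0.994 between CCN2 and ANKRD1 and 0.968 between CCN2 and CCN1, against 0.811 between CCN2 and CCN3.

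By TPM in the WT/WT clones 44a and 4.72, the order of the members was CCN2, CCN1, then AMOTL2 at 82.1 and 106 next to ARHGEF17 at 79.8 and 93.5, then AJUBA at 52.2 and 40.3 next to ANKRD1 at 40.3 and 38.4. The neighbours AMOTL2 and ARHGEF17, and AJUBA and ANKRD1, overlapped between the clones. CCN3 followed at 10.1 and 9.64 TPM, and CCN4, CCN5 and CCN6 did not exceed 9.94 TPM in any WT/WT clone. In the WT/C134W clones 3.11 and 44b the values were 34.3 and 77.2 TPM for AMOTL2, 49.3 and 53.9 TPM for ARHGEF17, 3.58 and 21.4 TPM for ANKRD1 and 1.72 and 1.3 TPM for CCN3. AMOTL2 overlapped both ARHGEF17 and AJUBA there, AJUBA lay below ARHGEF17 in both clones, and in 3.11 CCN4, at 5.05 TPM, exceeded both ANKRD1 and CCN3.

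The wider set of YAP and TAZ targets was described beside the members. Of 22 target genes in a compiled signature 21 were tested, 0 passed over all genes in edgeR's test in either direction, and 14 had a negative log2 fold change, with a median of -0.38 beside 0.01 and 49.4% negative over all tested genes. Without the 5 members it contains, 9 of 16 were negative, with a median of -0.15. LATS2, a Hippo kinase that is itself a YAP target, had 41.9 and 55.4 CPM in 3.11 and 44b, against 87.3 and 72.3 CPM in 44a and 4.72. Both WT/C134W clones lay below both WT/WT clones for 11 of the 21, and for 6 of the 16 that are not members, beside 19.7% of all tested genes. They lay above them for 1, beside 19.9% of genes, and overlapped them for 9. AXL, a receptor tyrosine kinase named here after its values were seen, had 890 and 894 CPM in the WT/C134W clones, against 928 and 756 CPM in the WT/WT clones. On log2(TPM + 1) 11 of the 21 were negative, with a median of -0.05, beside a median of 0.13 over all tested genes on that scale.

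**Figure D5:**
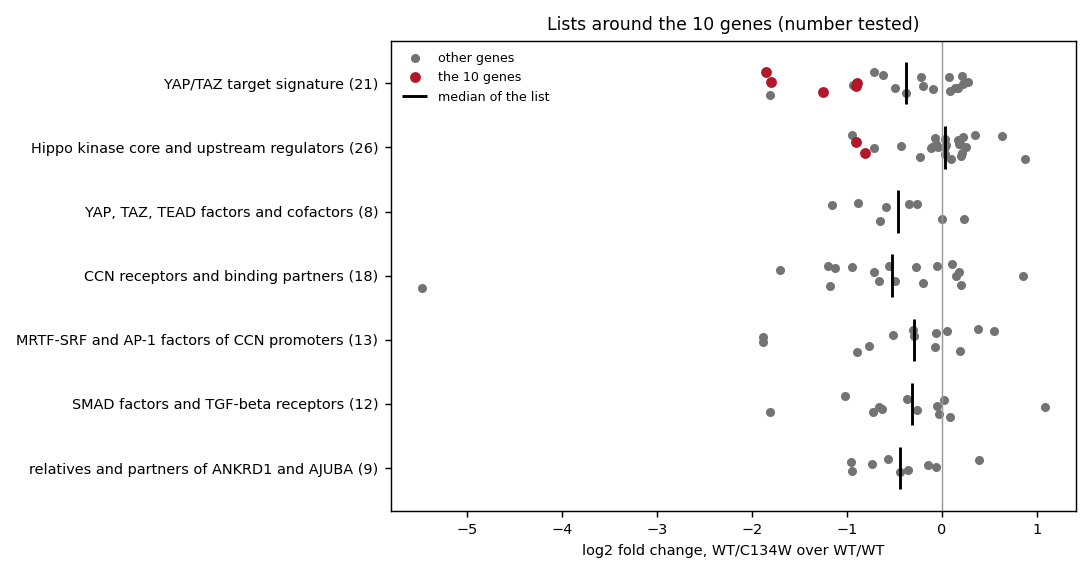
Log2 fold change of WT/C134W relative to WT/WT for each tested gene (points) in 7 lists, with red points for the 10 members and black bars for the median of each list. The signature of YAP and TAZ targets has a median of -0.38 with the members in it, and the Hippo kinase core and upstream regulators lie around 0 with a median of 0.03. The point below -5 among the receptors is ACAN, named after its values were seen, whose WT/WT level was 50.6 CPM in 4.72 and 1.61 CPM in 44a.

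Genes of the pathway itself were described in the same way. Of 26 kinase core and upstream genes, which include AMOTL2 and AJUBA, 11 were negative and 15 positive, with a median of 0.03, and 0 passed. WTIP, a relative of AJUBA, had 15.2 and 22.2 CPM in 3.11 and 44b, against 29.1 and 42.7 CPM in 44a and 4.72, whereas MAP4K4, a kinase that can activate LATS, had 426 and 267 CPM against 244 and 204 CPM. Of 10 genes for YAP, TAZ, TEAD factors and cofactors 8 were tested, 0 passed, and 7 were negative, with a median of -0.47. YAP1, named after its values were seen, had 143 and 132 CPM in the WT/C134W clones, against 128 and 148 CPM in the WT/WT clones, a log2 fold change of -0.00 ± 0.16 (SE). WWTR1, which encodes TAZ and was also named after its values were seen, had 123 and 86.2 CPM against 100.5 and 77.4 CPM, and overlapped as well. TEAD3, one of the DNA-binding partners, had 28.9 and 43.7 CPM in 3.11 and 44b, against 92.2 and 69.5 CPM in 44a and 4.72, a log2 fold change of -1.16 ± 0.26. VGLL4 and VGLL3, cofactors that bind TEAD, had -0.65 and -0.88, and TEAD4 had -0.59.

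Among 18 tested receptors and binding partners of CCN proteins 13 were negative, with a median of -0.53, and 0 passed. ITGAV, the integrin chain to which CCN1 and CCN2 bind, had 219 and 228 CPM in 3.11 and 44b, against 500.3 and 516 CPM in 44a and 4.72, and HSPG2, ITGA5 and SDC4 had log2 fold changes of -0.94, -1.21 and -0.56. Of 13 tested SRF, AP-1 and related factors 9 were negative, with a median of -0.30, and 0 passed. SRF, the factor that reads actin dynamics with MRTF coactivators, had 52.9 and 85.0 CPM in the WT/C134W clones, against 119 and 138 CPM in the WT/WT clones, with the same order of the 4 clones as CCN1. EGR1, JUNB and JUND had log2 fold changes of -1.88, -1.89 and -0.52. Of 12 SMAD factors, TGF-beta ligands and receptors 9 were negative, with a median of -0.32, and 0 passed: TGFB1 had 167 and 197 CPM against 391 and 349 CPM, SMAD7 and SMAD3 had -0.73 and -0.63, and TGFBR3 had 1.09. Of 9 tested relatives and partners of ANKRD1 and AJUBA 8 were negative, with a median of -0.44, and 0 passed. ZYX, a LIM protein of focal adhesions, had 480 and 823 CPM in 3.11 and 44b, against 1134 and 1389 CPM in 44a and 4.72, while FBLIM1 and LPP had log2 fold changes of -0.74 and -0.36. On log2(TPM + 1) the medians were -0.23 for the receptors, -0.12 for the SRF and AP-1 factors, -0.01 for the SMAD list and -0.07 for the relatives. In that order 11 of 18, 7 of 13, 6 of 12 and 7 of 9 were negative. The median over all tested genes was 0.13 on that scale. An unadjusted p under 0.05 in edgeR's test was found for 2 to 5 genes lower in WT/C134W in each of the 7 lists. It was found for 1 gene higher in the lists of receptors and of SMAD factors, beside 7.57% of all tested genes in either direction. These counts include members picked on this contrast, ARHGEF17, CCN1 and CCN2 in the target signature and AJUBA in the kinase core. LATS2 and WTIP are each counted in more than 1 list, so nothing is read from the counts. DESeq2, which called 1.54% of all genes lower, called TEAD3 and VGLL4 among the TEAD factors and cofactors, ITGAV, ITGA5 and HSPG2 among the receptors, JUNB and EGR1 among the SRF and AP-1 factors, and TGFB1, all lower. In the target signature it called only CCN1 and ARHGEF17 and in the kinase core only AJUBA, which are members picked on this contrast, and in the list of relatives and partners it called 0.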

How the data were processed

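Gene tables of 6 RNA-seq libraries were used, made per the labels' protocols with a stranded mRNA kit. Per the file headers, the authors deposited RSEM's expected count (estimated reads per gene, unscaled), TPM, FPKM (not used) and effective length. The submitters' processing notes name STAR 2.7.6a, RSEM 1.3.1 and others without roles, and a mouse build, although the gene IDs are human; the sources used here do not give the human build, annotation or strand setting, so antisense and overlapping genes are uncertain. Symbols came from a gene name table, coordinates (GRCh38) from GENCODE release 29 and promoters from RefSeq.

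Expected counts were rounded. Genes across the whole table were kept by filterByExpr, TMM-scaled and tested with edgeR 4.0.16 (glmQLFit, robust; glmQLFTest) in R 4.3.3 on the 4 single clones, with Benjamini-Hochberg adjustment at 0.05. The code of the fit was checked on simulated counts with the same set spread for every gene, which does not measure power in these clones. SE is the log2 fold change over the square root of F. CPM is TMM-scaled over all 6 libraries. With 2 to 3 samples per genotype, p-values, SDs and SEs reflect the spread between these samples only, and floors of counts cover counting error only. Members and lists were chosen with earlier results of these data known. Named genes are FOXL2, the 10 members, the 4 smallest p of each list and the 5 genes most like CCN1, CCN2 and CCN3 (mean of at least 5 CPM, SD of log2 CPM of at least 0.5, autosomal). Alternatives, 14 in number, used DESeq2 1.42.0, limma 3.58.1 on log2(TPM + 1) or log2(TPM + 0.1), other scalings and filters, all 6 libraries, a block and each clone left out.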

Additional observations from a re-analysis of the deposited data

How the results depend on the processing

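The count of genes called between genotypes was 0 in the 4 clones and moved to 511 with all 6 libraries, 664 without a low-count filter, 283 with DESeq2 and 5 with a replicate block that paired 44a with 44b and 4.72 with 3.11; in the 10 other alternatives it was 0, each clone left out in turn included, where the lone clone of a genotype is assumed to vary like the other genotype. Without the filter edgeR's prior degrees of freedom were infinite, against 3.71 with it. There 664 of 24301 tested genes passed, 426 of them lower in WT/C134W, and so did 9 of the 10 members. The members were picked on this contrast, so nothing is read from their number. The labels do not say that the clones are paired, and the block called 0 members. The direction of 8 members held in every alternative that gave a value. The 8 include CCN6, whose 0 counts in both WT/C134W clones fixed its sign in each fit on the single clones. Between the joined libraries alone its ratio of WT/C134W to WT/WT was 1.78. The alternatives reuse the libraries on which the members were picked, so they are no independent check of direction. CCN4 ran from -1.33 (without 3.11) to 4.63 (without 4.72), and CCN5 from -3.55 (without 4.72) to 1.19 (without 44a); the cause was not tested. The filter of 10 CPM left no value for CCN4, CCN5 and CCN6, and CCN6 had none without 4.72. The median log2 fold change of all genes was 0.01 in the fit on the 4 clones, 0.23 with library totals alone and 0.13 on log2(TPM + 1). In the same order it was 0.03, 0.26 and 0.20 for the Hippo kinase core, and -0.47, -0.26 and -0.18 for YAP, TAZ and TEAD factors. On log2(TPM + 1) the medians of the lists rose further than that of all genes. The SMAD list went from -0.32 to -0.01 and the relatives of ANKRD1 and AJUBA from -0.44 to -0.07. At these depths CCN6, with 0 to 19 counts, was near the limit of detection.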
